A study of Homo sapiens with 6 samples.

Results

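MAL2 and 9 related genes of membrane rafts were followed in SW480 cells, an established line from a human colorectal adenocarcinoma, that overexpressed either POU5F1B or green fluorescent protein (GFP). The 10 genes are MAL2, MAL, PLLP, MARVELD1, CMTM4, CMTM6, FLOT1, FLOT2, STOM and STOML1. They were picked by symbol, and each of the 10 was matched to 1 of the 63677 gene identifiers in the count tables. MAL2 heads the list because of its own difference between the 2 groups: when POU5F1B replicate 3 was left out of the limma voom fit, it had an adjusted p of 0.0446 and a log2 fold change of 2.64. In that same fit the next member was FLOT1, with an adjusted p of 0.217. The values that follow for MAL2 are therefore a description. Where a fit of the same libraries puts it past a threshold, this restates its choice and is not a test of it. The part that the values of the other 9 played in their choice is not known, so their fitted values are read as descriptions too.

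Both groups carried a doxycycline-inducible lentiviral vector, encoding GFP in the control cells and POU5F1B in the others, and both received 1 µg/mL doxycycline for 72 h. The 3 libraries of each group hold polyA RNA. GFP cells received doxycycline too, so the groups differ in the encoded protein and not in the drug. The cells were transduced and selected with puromycin, as the study's methods state, and nothing in the labels says that the replicates came from separate transductions or cultures, so p-values measure the spread between these libraries only.

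Membrane rafts are patches of the cell membrane rich in cholesterol and sphingolipids, which resist extraction by cold detergent. A pair of protein families is found there. Proteins with a MARVEL domain, such as MAL, MAL2, PLLP (plasmolipin), MARVELD1 and the CMTM proteins, span the membrane several times and are known for sorting, vesicle transport and junctions. Proteins with an SPFH domain, such as the flotillins FLOT1 and FLOT2 and stomatin (STOM), sit in the membrane through a hairpin or lipid anchors and assemble into large oligomers that scaffold membrane patches. In polarized epithelia MAL carries newly made proteins directly to the apical surface, while MAL2 serves the indirect route, transcytosis, by which cargo first reaches the basolateral side.

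The libraries held between 10767947 and 12787637 counts. POU5F1B, the overexpressed gene, had 6, 5 and 1 counts in GFP replicates 1, 2 and 3 and 15027, 11393 and 1458 in the POU5F1B libraries. Its level in POU5F1B replicate 3 was thus the lowest of that group, at 121 CPM (counts scaled to a common library size, corrected by TMM) beside 1182 and 1056 CPM. GFP replicate 3 also stood apart. When libraries were weighted by how well they fitted their group, it received a weight of 0.111, against 0.575 to 2.79 for the others. For this reason values without the replicate 3 libraries are given beside results that they moved. Markers of colorectal epithelium were present in each library, with a summed level of 6366 to 9580 CPM over 8 genes in GFP cells and 7908 to 8930 CPM in POU5F1B cells. KRT8 and KRT18 were the highest of them. Markers of leukocytes (PTPRC, CD3E and CD68) had at most 3 counts in a library.

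Of the 10 genes, 8 passed the filter on low counts. MAL, the founding member of its family, had 0 counts in all 6 libraries, where 3 counts would correspond to between 0.229 and 0.278 CPM, and it was not detectable at this depth. PLLP, a myelin and epithelial MARVEL protein, had 8, 6 and 8 counts in GFP replicates 1, 2 and 3 and 5, 4 and 16 in POU5F1B replicates 1, 2 and 3, too few to be tested. Part of these few PLLP counts is uncertain as well, since 19.9% of its annotated exonic length is shared with ARL2BP on the opposite strand and the strand setting of the counting was not stated. Such floors cover counting error only.

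MAL2 (ENSG00000147676, plus strand of chromosome 8 at 120177273 to 120257913, GRCh37) was higher in POU5F1B cells. In GFP replicates 1, 2 and 3 there were 307, 301 and 207 counts, which is 25.9, 22.9 and 18.01 CPM. In POU5F1B replicates 1, 2 and 3 it had 1728, 1489 and 479 counts, or 136, 138 and 39.9 CPM. All 3 POU5F1B libraries lay above all 3 GFP libraries, and POU5F1B replicate 3 was the closest to the control. Its mean level was 22.3 ± 3.97 CPM with GFP against 105 ± 56.1 CPM with POU5F1B (SD, n = 3), and the fitted log2 fold change was 2.04 ± 0.57 (SE), a 4.10-fold difference. Set side by side by replicate number, the difference in log2 CPM was 2.39 and 2.58 in replicates 1 and 2 and 1.14 in replicate 3. The library with the smallest MAL2 difference was thus also the one with the least POU5F1B transcript, a pattern of 3 libraries whose cause was not tested. With replicates 1 and 2 only the log2 fold change was 2.48, without GFP replicate 3 it was 1.89, and without POU5F1B replicate 3 it was the 2.64 given above.

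**Figure D1:**
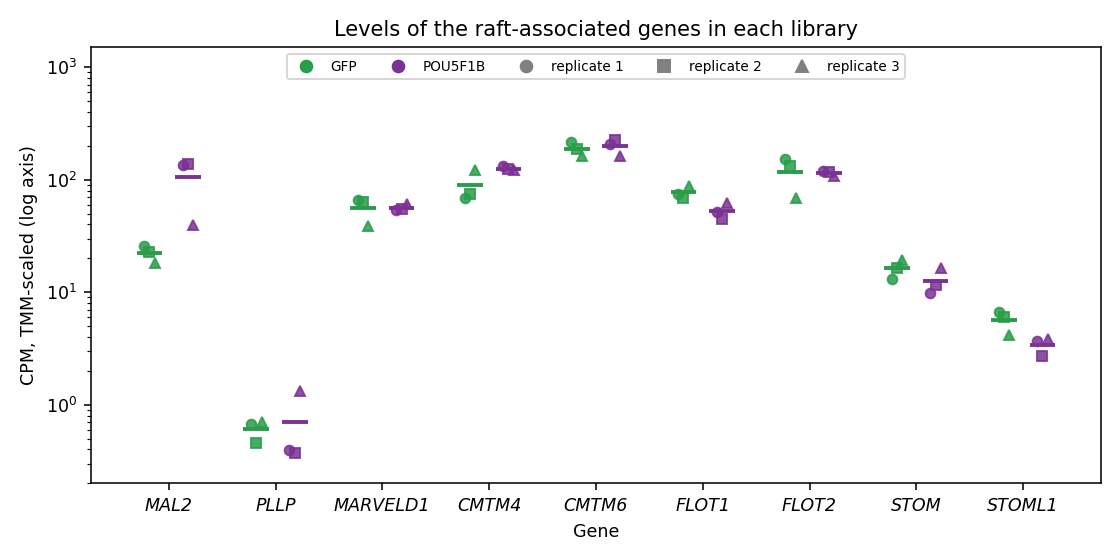
Level of the 9 detected genes in each library, in CPM on TMM-scaled library sizes and a log axis. Green marks GFP and purple POU5F1B libraries, the symbol gives the replicate number and the bar the group mean (n = 3). MAL2 lay between 18.01 and 25.9 CPM in GFP cells and between 39.9 and 138.0 CPM in POU5F1B cells, while CMTM6 and FLOT2 overlapped between groups.

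Over the whole table, 0 of 14286 tested genes (0%) passed an adjusted p under 0.05 together with a fold change above 2 in limma voom, and 0 of the 8 tested members did. The edgeR quasi-likelihood test also called 0 genes, whereas DESeq2 called 232 of the 14222 genes to which it gave an adjusted p (1.63%). Of the members other than MAL2, 0 passed with DESeq2 or in limma voom with quality weights (7.54% of all genes called), without POU5F1B replicate 3 (0.035%) or with replicates 1 and 2 only (8.36%). MAL2 was past the threshold in these 4 fits, of which nothing is read, as it was chosen from the same contrast and libraries. Without GFP replicate 3, 0 members and 4.16% of all genes passed. At an unadjusted p under 0.05 limma voom had 1698 genes, 11.9% of those tested. Among the members these were MAL2, CMTM4, FLOT1 and STOML1, 4 of 8, and since the list was drawn up with this contrast known nothing is read from that share. The groups did not overlap in CPM for 19.4% of all tested genes. Among the members they did not overlap for MAL2, which was higher with POU5F1B, where 10.2% of genes were, and for FLOT1 and STOML1, which were lower, where 9.24% were. The median log2 fold change of the 8 tested members was 0.04, beside -0.02 over all tested genes. The adjusted p-values of the 7 tested members other than MAL2 ranged from 0.305 to 0.981 in limma voom.

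**Figure D2:**
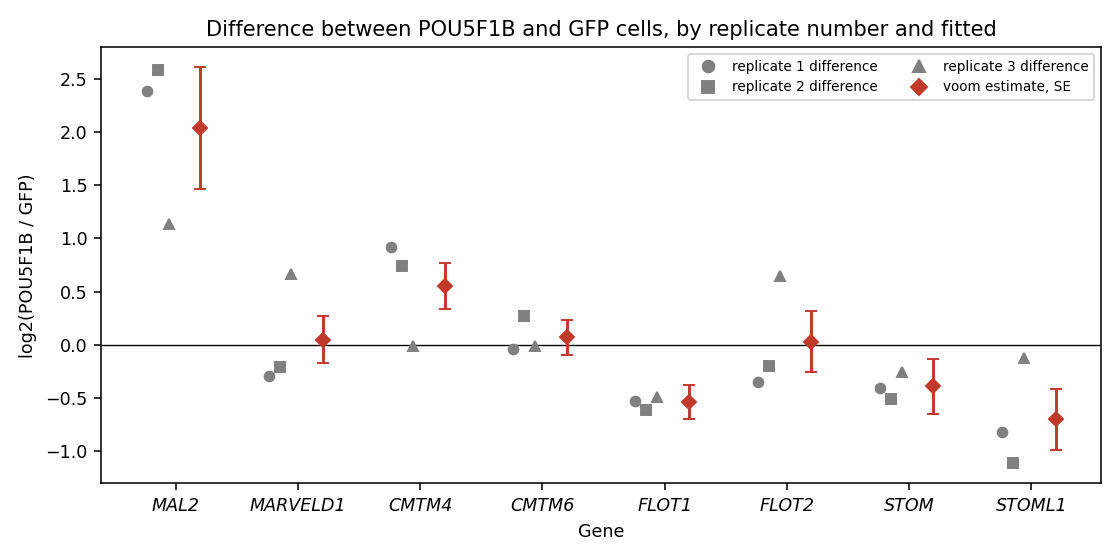
Difference between POU5F1B and GFP cells on the log2 scale for the 8 tested genes. Grey symbols are the differences between libraries with the same replicate number and red diamonds the voom estimate with its SE. Replicate 3 lay on the other side of 0 from replicates 1 and 2 for MARVELD1, FLOT2 and CMTM4, the last at -0.01, whereas FLOT1 was below 0 in all 3, at -0.49 to -0.62.

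Among the MARVEL members that were tested, CMTM4 and CMTM6 stabilize the immune checkpoint ligand PD-L1 at the cell surface and MARVELD1 is a less studied protein of the family. CMTM4 (ENSG00000183723, chromosome 16 at 66648653 to 66730646, minus strand) had 69.3, 74.5 and 123 CPM in GFP replicates 1, 2 and 3 and 131, 124 and 121 CPM in POU5F1B replicates 1, 2 and 3. Only GFP replicate 3 reached the level of the POU5F1B libraries. Over all libraries the log2 fold change was 0.55 ± 0.22 (SE), with an adjusted p of 0.391 in limma voom. With replicates 1 and 2 only it was 0.82, with a limma voom adjusted p of 4.58e-05, and without GFP replicate 3 it was 0.79 (adjusted p = 0.00538, limma voom), in both cases a change of less than 2-fold.

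CMTM6 (ENSG00000091317, chromosome 3 at 32522804 to 32544344, minus strand) was among the most abundant members and varied little. It had 215, 188 and 164 CPM in GFP cells and 209, 227 and 163 CPM in POU5F1B cells, and in both groups replicate 3 was the lowest. Its log2 fold change was 0.07 ± 0.17 (SE), with a 95% interval of -0.32 to 0.47 and a limma voom adjusted p of 0.896. CMTM6 and its neighbor CMTM7 are annotated with 324 bp of shared exon on opposite strands, 8.40% of the CMTM6 exonic length, so a small share of their counts could be exchanged.

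MARVELD1 (ENSG00000155254, chromosome 10 at 99472930 to 99477907, plus strand) had 65.4, 63.7 and 38.4 CPM in GFP replicates 1, 2 and 3. The POU5F1B libraries had 53.4, 55.0 and 60.9 CPM. GFP replicate 3 was the lowest of the 6 libraries, and it set the direction of the difference. Over all libraries the log2 fold change was 0.05 ± 0.22 (SE), with a 95% interval of -0.48 to 0.58 (limma voom adjusted p = 0.955), and it became -0.21 without GFP replicate 3 and -0.27 with replicates 1 and 2 only.

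CD274, which encodes PD-L1, is a known client of CMTM6 and CMTM4 and was low in these cells, with 10, 12 and 31 counts in GFP and 37, 27 and 16 counts in POU5F1B replicates 1, 2 and 3. It was higher in POU5F1B cells in replicates 1 and 2 and lower in replicate 3, with a log2 fold change of 0.73 ± 0.54 (SE, adjusted p = 0.623 by limma voom). PDCD1LG2, which encodes the related ligand PD-L2, had at most 14 counts in a library and was not tested. CD58, an adhesion ligand of T cells that also binds CMTM6, had 19.7 ± 8.01 CPM with GFP against 16.6 ± 0.315 CPM with POU5F1B (SD, n = 3), and GFP replicate 3 held the highest value, 29.0 CPM.

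Of the flotillins, FLOT1 was lower with POU5F1B in each library, without passing the test, and FLOT2 overlapped between the groups. FLOT1 (ENSG00000137312, chromosome 6 at 30695486 to 30710509, minus strand) had 74.5, 69.2 and 87.2 CPM in GFP replicates 1, 2 and 3 and 51.7, 45.0 and 62.2 CPM in POU5F1B replicates 1, 2 and 3. Every POU5F1B library lay below every GFP library. The difference was similar at each replicate number, at -0.52, -0.62 and -0.49 on the log2 scale, and the fitted log2 fold change was -0.54 ± 0.16 (SE), with an adjusted p of 0.305 in limma voom. The value was -0.46 without GFP replicate 3 and -0.65 without POU5F1B replicate 3. With replicates 1 and 2 only it was -0.58 (limma voom adjusted p = 0.00195), short of a 2-fold change.

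FLOT2 (ENSG00000132589, chromosome 17 at 27206353 to 27224751, minus strand), the partner with which FLOT1 forms hetero-oligomers, had 152, 133 and 69.0 CPM in GFP cells. In POU5F1B cells it had 119, 116 and 108 CPM. The GFP libraries enclosed all 3 POU5F1B libraries, with GFP replicate 3 the lowest of the 6. Over these libraries the log2 fold change was 0.03 ± 0.29 (SE), with a 95% interval of -0.65 to 0.71 (limma voom adjusted p = 0.981). It turned to -0.33 without GFP replicate 3 and to -0.29 with replicates 1 and 2 only (limma voom adjusted p = 0.0353 in the latter). Its sign also turned with all 6 libraries in edgeR (-0.045) and DESeq2 (-0.049), so no direction can be given for FLOT2.

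Because a ratio of 2 genes within a library does not depend on the scaling of libraries, FLOT1 was also set against FLOT2. The ratio of FLOT1 to FLOT2 counts was 0.491, 0.519 and 1.26 in GFP and 0.435, 0.388 and 0.575 in POU5F1B replicates 1, 2 and 3. The groups overlapped, since POU5F1B replicate 3 exceeded GFP replicates 1 and 2. The ratio of CMTM4 to CMTM6 counts was 0.323, 0.395 and 0.748 in GFP and 0.627, 0.548 and 0.746 in POU5F1B cells. Both ratios were highest in GFP replicate 3.

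The stomatins were lower in POU5F1B cells at each replicate number, without passing the test. STOM (ENSG00000148175, chromosome 9 at 124101265 to 124132582, minus strand), a cholesterol-binding regulator of ion channels first found in red cells, had 13.1, 16.5 and 19.5 CPM in GFP and 9.91, 11.6 and 16.3 CPM in POU5F1B replicates 1, 2 and 3. The groups overlapped, and replicate 3 was the highest in both. STOM had a log2 fold change of -0.39 ± 0.26 (SE, adjusted p = 0.584 by limma voom), which was -0.28 without GFP replicate 3 and -0.59 without POU5F1B replicate 3. STOML1 (ENSG00000067221, chromosome 15 at 74271267 to 74286963, minus strand), a stomatin-like protein with a lipid-transfer domain, had 79, 79 and 48 counts in GFP and 47, 29 and 46 counts in POU5F1B cells. In CPM the POU5F1B libraries, at 2.69 to 3.83, lay just below the GFP libraries, at 4.18 to 6.66. STOML1 differed by a log2 fold change of -0.70 ± 0.29 (SE, adjusted p = 0.403 by limma voom), which was -0.90 without GFP replicate 3 and -0.99 with replicates 1 and 2 only. FLOT1, STOM and STOML1 were the 3 members with a negative difference at every replicate number, as were 17.8% of all tested genes.

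To compare levels between genes, CPM was divided by the length of the reference (MANE Select) transcript of each gene, in kb. CMTM6 led in GFP cells, at 57.2 ± 7.67 CPM per kb, followed by FLOT2 at 44.2 ± 16.3 and FLOT1 at 41.2 ± 4.96 CPM per kb (SD, n = 3). The ranges of neighbors among these 3 genes overlapped. MARVELD1, at 17.4 ± 4.71 CPM per kb, CMTM4, at 10.9 ± 3.60, and MAL2, at 7.88 ± 1.40, came next, each overlapping with its neighbor in this order. STOM followed at 5.21 ± 1.01 CPM per kb, STOML1 at 0.894 ± 0.205 and PLLP at 0.407 ± 0.0882, and no neighbors among MAL2, STOM, STOML1 and PLLP overlapped.

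In POU5F1B cells CMTM6 was again first, at 60.3 ± 9.99 CPM per kb, and FLOT2 second, at 42.9 ± 2.09. By its mean MAL2 stood at position 3 of the order, against position 6 in GFP cells, at 37.01 ± 19.8 CPM per kb, with a range that overlapped those of FLOT2 and of FLOT1, which followed at 28.4 ± 4.63 CPM per kb (SD, n = 3). In replicates 1 and 2 the level of MAL2 per kb was 48.1 and 48.8, above FLOT2 and every other member but CMTM6. In POU5F1B replicate 3 it was 14.1 CPM per kb, below FLOT1 and also below MARVELD1 (19.0) and CMTM4 (14.9), so that in this library MAL2 stood at position 6 as in GFP cells. MARVELD1 had 17.6 ± 1.24 and CMTM4 15.4 ± 0.618 CPM per kb, and their ranges did not overlap. Lengths come from an annotation that may differ from the one used for counting.

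**Figure D3:**
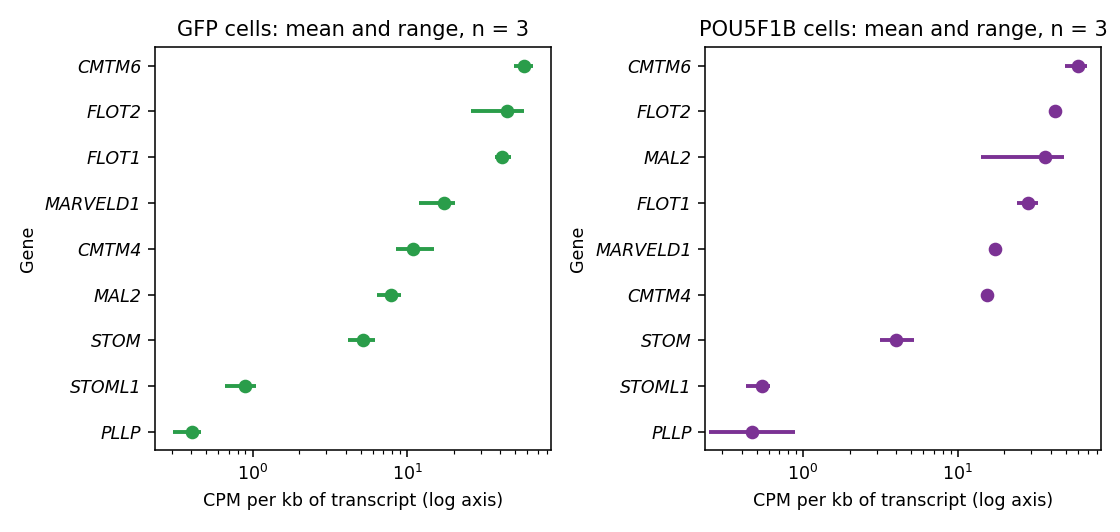
Levels per kb of transcript on a log axis, ordered within each group. Points are means and lines the range of 3 libraries. MAL2 stood at 7.88 CPM per kb in GFP cells and at 37.01 CPM per kb in POU5F1B cells, while the order of the remaining genes was the same in both groups.

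The wider MARVEL family has 26 genes on the list used here, of which 19 were tested. None passed the threshold in limma voom, 15 had a log2 fold change above 0 and 4 below, and the median was 0.23, beside -0.02 over all tested genes. Across replicate numbers 7 of the 19 were higher at every number and 0 were lower, against 19% and 17.8% of all tested genes. The 19 include MAL2 and the other tested MARVEL members, chosen with this contrast known, so nothing is read from these shares. Without the members 15 tested genes remained, 11 above 0 and 4 below, with a median of 0.23. For the 19 the median was 0.09 without GFP replicate 3. In 10 of the 19 the replicate 3 difference had the opposite sign to those of replicates 1 and 2.

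MALL, also known as BENE, a MAL-like protein, had 13.5, 9.37 and 8.79 CPM in GFP and 27.1, 24.1 and 20.9 CPM in POU5F1B replicates 1, 2 and 3. The groups were apart, and the differences were 1.00, 1.35 and 1.23 on the log2 scale. MALL thus differed by a similar amount in replicate 3 as in replicates 1 and 2, unlike MAL2. Its log2 fold change was 1.21 ± 0.22 (SE, adjusted p = 0.195 by limma voom). MALL passed the threshold without GFP replicate 3 (1.09, limma voom adjusted p = 0.0213), as did 4.16% of all tested genes. In DESeq2, which called 1.63%, it also passed (1.19, DESeq2 adjusted p = 0.00108). It did not pass in edgeR (edgeR adjusted p = 0.196) or without POU5F1B replicate 3 (limma voom adjusted p = 0.151). MALL was named for its large fold change in this contrast, so a pass restates that choice. The ratio of MAL2 to MALL counts was 1.92, 2.45 and 2.05 in GFP cells and 5.01, 5.73 and 1.91 in POU5F1B cells, so that in POU5F1B replicate 3 it lay just below the lowest GFP library.

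MARVELD3, a tight junction protein related to occludin, had 2.27, 1.68 and 7.22 CPM in GFP and 9.36, 7.69 and 5.83 CPM in POU5F1B replicates 1, 2 and 3. GFP replicate 3 fell among the POU5F1B libraries. MARVELD3 had a log2 fold change of 1.32 ± 0.51 (SE, adjusted p = 0.386 by limma voom). Without GFP replicate 3 it was 1.92 and passed (limma voom adjusted p = 0.0166), as did 4.16% of all tested genes. With all libraries MARVELD3 did not pass in DESeq2 (DESeq2 adjusted p = 0.428) or edgeR (edgeR adjusted p = 0.498). Nor did it pass without POU5F1B replicate 3 (limma voom adjusted p = 0.376). SYP, which encodes the synaptic vesicle protein synaptophysin, had 14.2, 13.6 and 20.0 CPM in GFP and 2.91, 4.45 and 21.4 CPM in POU5F1B replicates 1, 2 and 3. POU5F1B replicate 3 was thus the highest of the 6 libraries and the other 2 of its group the lowest. Its log2 fold change was -1.25 ± 0.65 (SE, adjusted p = 0.497 by limma voom). It was -2.11 without POU5F1B replicate 3, short of the threshold (limma voom adjusted p = 0.105). SYP passed with replicates 1 and 2 only (-1.96, limma voom adjusted p = 8.82e-05), as did 8.36% of all tested genes. It also passed with quality weights (-1.71, limma voom adjusted p = 0.0143), as did 7.54%. With all libraries the value was -0.73 in both DESeq2 (DESeq2 adjusted p = 0.723) and edgeR (edgeR adjusted p = 0.694). MARVELD3 and SYP too were named for large fold changes, so a pass restates that choice.

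**Figure D4:**
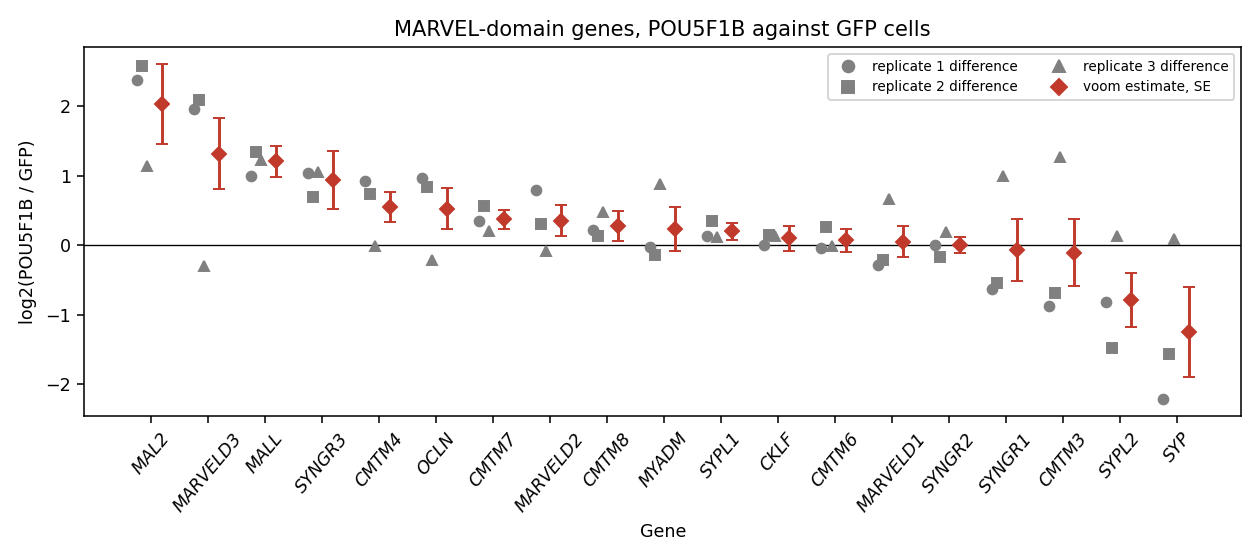
The 19 tested MARVEL-domain genes, ordered by the fitted log2 fold change between POU5F1B and GFP cells (red diamonds, with SE). Grey symbols are differences at each replicate number. MALL sat between 1.00 and 1.35 in all 3, whereas SYP ranged from -2.22 to 0.10.

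The SPFH list held 11 genes, 9 of them tested, of which 0 passed the threshold in limma voom. Of the 9, 3 had a log2 fold change above 0 and 6 below, with a median of -0.08. FLOT1, FLOT2, STOM and STOML1, described above, are among them. Without these members 5 tested genes remained, 2 above 0 and 3 below, with a median of -0.05. Over all tested genes 6706 were above 0 and 7580 below. STOML2, a mitochondrial stomatin-like protein, had 207, 217 and 220 CPM in GFP and 258, 267 and 270 CPM in POU5F1B libraries. The groups were apart and each varied little, and the difference lay between 0.30 and 0.31 on the log2 scale at each replicate number. Fitted over all libraries, it was 0.30 ± 0.09 (SE, adjusted p = 0.303 by limma voom). ERLIN1, an SPFH protein of the endoplasmic reticulum, had a log2 fold change of 0.16 ± 0.10 and the prohibitin PHB one of -0.13 ± 0.10 (SE). The stomatin-like gene of mitochondria was thus higher with POU5F1B at each replicate number, and STOM and STOML1 were lower.

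A list of 23 genes held partners of MAL and MAL2, machinery of apical transport and its cargo. Of these, 17 were tested, 0 passed the threshold in limma voom, 12 had a log2 fold change above 0 and 5 below, and the median was 0.13. TPD52L1 belongs to the tumor protein D52 family, which contains known binding partners of MAL2, and moved furthest. It had 215, 215 and 123 CPM in GFP replicates 1, 2 and 3 and 29.9, 29.8 and 71.0 CPM in POU5F1B replicates 1, 2 and 3. Each POU5F1B library was below each GFP library, with the replicate 3 libraries closest to each other. TPD52L1 had a log2 fold change of -2.16 ± 0.39 (SE, adjusted p = 0.185 by limma voom). It passed the threshold without GFP replicate 3 (-2.44, limma voom adjusted p = 0.0066), as did 4.16% of all tested genes, and in DESeq2 (DESeq2 adjusted p = 0.000147). It did not pass in edgeR (edgeR adjusted p = 0.196) or without POU5F1B replicate 3 (limma voom adjusted p = 0.0991). TPD52L1 was named for its large fold change in this contrast, so a pass restates that choice.

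TPD52 itself, the founding gene of that family, had 71.4 ± 25.8 CPM with GFP against 94.7 ± 13.7 CPM with POU5F1B (SD, n = 3), and these overlapped. The ratio of TPD52 to TPD52L1 counts was 0.281, 0.247 and 0.820 in GFP and 3.45, 3.43 and 1.11 in POU5F1B replicates 1, 2 and 3, with no overlap (a ratio formed after the values were seen). VAMP8, a SNARE protein of endosomes and regulated secretion, had 58.1 ± 7.40 CPM with GFP against 82.2 ± 11.2 CPM with POU5F1B (SD, n = 3), with a log2 fold change of 0.50 ± 0.16 (SE, adjusted p = 0.317 by limma voom). KIF5B, a kinesin motor heavy chain, had 278 CPM in GFP replicate 3 and between 52.5 and 113 CPM in the other 5 libraries. Its log2 fold change of -0.60 ± 0.56 (SE, adjusted p = 0.702 by limma voom) became 0.00050 without GFP replicate 3.

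Raft-associated signaling and surface proteins formed a list of 24 genes, 22 of them tested. In limma voom 0 passed the threshold, 14 had a log2 fold change above 0 and 8 below, and the median was 0.20. LCK, a Src-family kinase held in rafts by its lipid anchors, had 5.14, 5.71 and 12.8 CPM in GFP and 15.4, 15.8 and 17.2 CPM in POU5F1B libraries. The groups did not overlap, and GFP replicate 3 was the nearest to the POU5F1B libraries. LCK had a log2 fold change of 1.17 ± 0.34 (SE, adjusted p = 0.290 by limma voom). It passed without GFP replicate 3 (1.55, limma voom adjusted p = 0.0055), as did 4.16% of all tested genes. With all libraries it did not pass in DESeq2 (DESeq2 adjusted p = 0.132) or edgeR (edgeR adjusted p = 0.352). LCK, PAG1 and CD82 were named for the largest fold changes of this list, so a pass restates that choice.

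PAG1, the raft adaptor that recruits the kinase CSK to Src-family kinases, had 13.7, 15.6 and 6.79 CPM in GFP and 4.80, 5.28 and 7.08 CPM in POU5F1B libraries. In replicates 1 and 2 the POU5F1B libraries were the lower ones, and the replicate 3 libraries differed by 0.06 on the log2 scale. PAG1 had a log2 fold change of -1.01 ± 0.38 (SE, adjusted p = 0.363 by limma voom), and it passed without GFP replicate 3 (-1.39; limma voom adjusted p = 0.0106). CD82, a tetraspanin, had 47.2 ± 21.8 CPM with GFP against 83.2 ± 5.04 CPM with POU5F1B (SD, n = 3). CD82 had a log2 fold change of 0.92 ± 0.28 (SE, adjusted p = 0.304 by limma voom), and 1.25 without GFP replicate 3, which passed the threshold (limma voom adjusted p = 0.00242). In the fit without GFP replicate 3, 4.16% of all tested genes passed. With all libraries PAG1 and CD82 did not pass in DESeq2 (DESeq2 adjusted p = 0.138 and 0.170).

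The study used caveolin 1 as a mark of insoluble and the transferrin receptor of soluble membrane fractions, and both transcripts were measured. With POU5F1B it found part of the receptor protein moved to detergent-resistant membranes and higher levels of several caveolar proteins. Those results concern protein, and RNA levels do not show how protein divides between fractions. CAV1 had 69.3, 66.1 and 65.3 CPM in GFP and 17.7, 20.9 and 35.7 CPM in POU5F1B replicates 1, 2 and 3, with no overlap and POU5F1B replicate 3 nearest to the control. CAV1 had a log2 fold change of -1.50 ± 0.24 (SE, adjusted p = 0.185 by limma voom). It passed the threshold without GFP replicate 3 (-1.53, limma voom adjusted p = 0.0117), as did 4.16% of all tested genes. In DESeq2, which called 1.63%, CAV1 also passed (DESeq2 adjusted p = 0.000256). It did not pass in edgeR (edgeR adjusted p = 0.196) or without POU5F1B replicate 3 (limma voom adjusted p = 0.0599). TFRC, with 746 ± 152 CPM under GFP and 623 ± 29.6 CPM under POU5F1B (SD, n = 3), had a log2 fold change of -0.24 ± 0.15 (SE, adjusted p = 0.575 by limma voom), which was -0.09 without GFP replicate 3.

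The genes whose levels followed MAL2 most closely over the 6 libraries were looked up among 11105 tested genes with a mean of at least 5 CPM. By Pearson's r of log2 CPM they were P4HA2, APOBEC3B, F2RL1, TAP1 and GGCX, with r from 0.9977 down to 0.9957 over 6 libraries that fall into 2 groups, given here as a description. F2RL1, which encodes the protease-activated receptor PAR2, came nearest to MAL2 in size, with 32.0, 26.9 and 24.3 CPM in GFP and 106, 113 and 38.8 CPM in POU5F1B replicates 1, 2 and 3. APOBEC3B, a cytidine deaminase, had 102, 100.1 and 81.1 CPM in GFP and 237, 235 and 123 CPM in POU5F1B cells. P4HA2, a collagen prolyl hydroxylase subunit, differed less, with 104, 103 and 95.2 CPM under GFP and 171, 168 and 116 CPM under POU5F1B. TAP1, a peptide transporter of antigen presentation, and GGCX, the vitamin K-dependent carboxylase, had log2 fold changes of 0.39 ± 0.14 and 0.39 ± 0.15 (SE). No member of the list was among the closest genes, and FLOT1 had an r of -0.95 with MAL2.

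**Figure D5:**
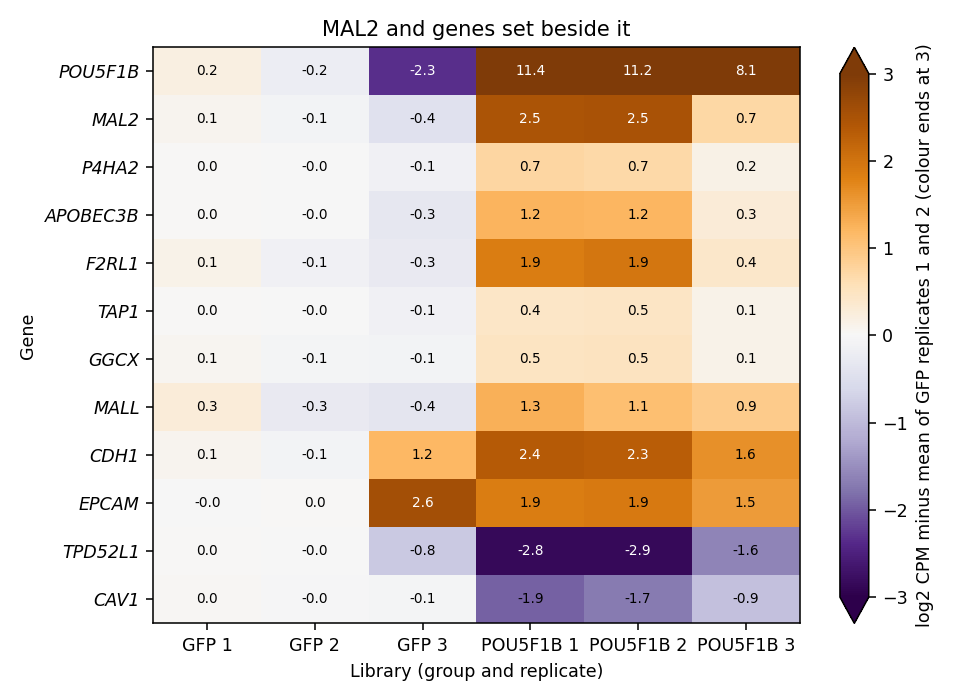
Log2 CPM of MAL2 and of genes set beside it, minus the mean of log2 CPM in GFP replicates 1 and 2, in each of the 6 libraries. Orange is higher and purple lower, the number in each cell is the value, and the color ends at 3. MAL2 reached 2.5 in POU5F1B replicates 1 and 2 and 0.7 in replicate 3, whereas EPCAM was highest, at 2.6, in GFP replicate 3.

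Of the 8 epithelial markers, 6 were higher with POU5F1B in both of replicates 1 and 2, and CDX2 and KRT20 were lower in both. The sizes differed widely, from 0.24 and 0.12 on the log2 scale for KRT8 to 2.28 and 2.39 for CDH1, and for CDX2 the differences were -0.75 and -0.41. In replicate 3 the sign was the opposite for 5 of the 8, EPCAM, KRT8, KRT19, CDX2 and VIL1. Only 2 were higher and 1 lower at every replicate number, against 19% and 17.8% of all tested genes. VIL1 had 23.1, 14.0 and 211 CPM in GFP and 42.7, 37.6 and 111 CPM in POU5F1B replicates 1, 2 and 3. CDH1, which encodes E-cadherin, had 33.7, 30.2 and 72.7 CPM in GFP and 164, 159 and 98.3 CPM in POU5F1B replicates 1, 2 and 3. EPCAM had 86.8, 89.4 and 519 CPM in GFP and 320.3, 331 and 252 CPM in POU5F1B cells, so that GFP replicate 3 was the highest of all for EPCAM and had the lowest MAL2. Over all libraries the log2 fold change was 1.71 ± 0.36 for CDH1 and 0.92 ± 0.65 for EPCAM (SE, limma voom adjusted p = 0.207 and 0.610). Neither passed the threshold. Without GFP replicate 3, where 4.16% of all tested genes passed, both did (2.09 and 1.75, limma voom adjusted p = 0.0065 and 0.00168). In DESeq2 with all libraries CDH1 passed (1.64, DESeq2 adjusted p = 0.00292) and EPCAM did not (0.40, DESeq2 adjusted p = 0.860). Of the 8 markers, 1 (CDH1) was higher in all POU5F1B libraries than in all GFP libraries. The same held for 10.2% of all tested genes, so nothing is read from 1 of 8. The summed level of the list overlapped between the groups. Of 7 markers of other cell types in the tables, 4 had at most 3 counts in any library and CD68 had 0 in all. The collagen gene COL1A1 had 142, 118 and 16.9 CPM in GFP and 6.76, 5.56 and 9.49 CPM in POU5F1B replicates 1, 2 and 3. Its log2 fold change over all libraries was -3.22 ± 1.09 (SE, adjusted p = 0.340 by limma voom). COL1A1 was past the threshold without GFP replicate 3 (-4.18 on the log2 scale, limma voom adjusted p = 0.000236). COL1A2, another collagen gene, had 19, 19 and 1 counts with GFP and 0, 2 and 1 with POU5F1B and was not tested. VWF, an endothelial marker, had 71, 68 and 13 counts with GFP and 81, 52 and 30 with POU5F1B, a log2 fold change of 0.35 ± 0.67 (SE, adjusted p = 0.870 by limma voom). The part of these differences in the MAL2 values was not tested, and in bulk RNA fewer cells of a type and less RNA per cell cannot be told apart.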

How the data were processed

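RNA of 6 SW480 libraries was analyzed, 3 with GFP and 3 with POU5F1B, grouped by sample title. The authors mapped reads to hg19 with hisat2, counted uniquely mapped reads with featureCounts on an annotation of genes and transposable elements, and deposited raw counts per Ensembl gene. The annotation release and the strand setting are not given in the sources used here. Unique counting on this joint annotation can lose reads in repeats of long untranslated regions. The libraries held 10767947 to 12787637 counts.

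From these counts, filterByExpr of edgeR 4.0.16 kept 14286 genes, and CPM and fold changes use TMM-scaled library sizes. R 4.3.3 and limma 3.58.1 were used for the comparison of POU5F1B with GFP, by a voom fit with no block and p-values adjusted by Benjamini and Hochberg's method across the tested genes. This follows the study's methods, and so do the limits of an adjusted p under 0.05 and a fold change above 2. The outcome differs: the study counted SW480 among its settings with enough upregulated genes to look up annotation terms, whereas this fit called 0 genes. The cause of this difference was not tested. Log2 CPM used a prior count of 2.

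Alternatives were edgeR, DESeq2 1.42.0, quality weights, other scalings and filters, the replicate number as a block, each library left out, and replicates 1 and 2 only. The fits were tried on simulated counts in which each gene had the same spread in all libraries. No simulated library stood apart as GFP replicate 3 does, so the fits were not tried in that situation. At the spread of these groups DESeq2 called 49 unchanged genes, voom 9 and edgeR 9, and at a smaller spread each called 2. Of 200 simulated 4-fold changes voom called 143 at the spread of these groups.

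The members and lists were chosen with earlier results of these data known. Named genes are the 10 members, POU5F1B, the 3 genes with the largest fold changes and a mean of at least 5 CPM in each of 4 lists, CD274, PDCD1LG2, CD58, CAV1, TFRC and the 5 genes most like MAL2. CMTM7, TPD52 and the markers were named in addition, after their values were seen. Coordinates and lengths are from GENCODE on GRCh37, the same build as hg19, and symbols were matched for 87.4% of identifiers.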

Additional observations from a re-analysis of the deposited data

How the results depend on the processing

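The MAL2 difference had a log2 fold change of 1.73 to 2.64 under the 16 alternatives. Its direction stayed the same, of which nothing is read. MAL2 was chosen for this difference, and every POU5F1B library lay above every GFP library, so leaving out libraries could not reverse it. The number of members past the threshold, 0 as reported, was 1 with DESeq2, with quality weights and with replicates 1 and 2 only, and 0 to 1 when single libraries were left out (MAL2, of which nothing is read, as this contrast chose it). Over all genes the count was 232 with DESeq2, 1077 with quality weights, 4 with no filter, 1 with the replicate block, 1194 with replicates 1 and 2 only and 0 to 595 when single libraries were left out, where GFP replicate 3 gave 595 and POU5F1B replicate 3 gave 5.

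The median of the members changed sign with edgeR (-0.015), DESeq2 (-0.018), quality weights (-0.23) and the first 2 replicates alone (-0.28). Leaving out single libraries gave -0.24 to 0.17, it being -0.24 without GFP replicate 3 and -0.0034 without POU5F1B replicate 2. The MARVEL median moved to 0.13 with quality weights and 0.16 with replicates 1 and 2, and libraries left out in turn gave 0.089 to 0.33. The SPFH median was -0.14 with quality weights, -0.027 with upper quartile scaling, -0.15 with replicates 1 and 2 only and -0.11 to -0.024 across libraries left out. The raft median was 0.16 with quality weights, 0.25 with upper quartile, 0.24 with total counts, 0.26 with at least 10 counts in every sample and 0.12 to 0.27 across libraries left out. The transport median moved to 0.25 in replicates 1 and 2, and libraries left out in turn gave 0.090 to 0.18. The other scalings moved the median of all genes by at most 0.05.

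FLOT2 changed sign with edgeR (-0.045), DESeq2 (-0.049), quality weights (-0.24), replicates 1 and 2 alone (-0.29), GFP replicate 3 left out (-0.33) or POU5F1B replicate 1 left out (-0.00039). MARVELD1 did so under quality weights (-0.22), in replicates 1 and 2 alone (-0.27) and with GFP replicate 3 left out (-0.21, the other libraries left out giving up to 0.19). CMTM6 did so with GFP replicate 3 (-0.037) or POU5F1B replicate 2 (-0.026) left out, the other libraries giving up to 0.22. For members other than MAL2, 101 values kept direction and side of the threshold, and no member among them passed it. The cause of these changes was not tested.

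The replicate number was used as a block only as an alternative. Same-numbered libraries deviated from their group means with correlations across genes of r = 0.24, 0.088 and 0.16 for replicates 1, 2 and 3, and POU5F1B replicate 1 correlated slightly better with GFP replicate 2 (r = 0.25), so the numbers are not known to pair the libraries. With the block the log2 fold change of MAL2 was 2.15, and 0 members passed. At this depth PLLP and MAL could not be compared between groups.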
